A study of Mus musculus with 8 samples.

Results

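The brain-only 5hmC peaks were the nuclear peaks of the adult brain library that had a score of at least 80 and overlapped, by 1 bp or more, no peak of ESCs, MEFs or liver at any score. The rule selected 2370 peaks out of 33202 brain peaks with a score of at least 80, and out of 157511 nuclear brain peaks in all. The score is the peak caller's value for each peak, which in such lists is the negative log10 of the p-value times 10. Brain and liver came from adult C57BL/6 mice of 8 weeks, MEFs (primary embryonic fibroblasts) from C57BL/6 embryos labelled day 11, although the methods give a later embryonic day, and ESCs were the E14 line. The same E14 cells, transfected with an shRNA against GFP as a control or against Suz12, a subunit of Polycomb repressive complex 2, gave 2 further lists that the rule did not use. Each condition had 1 library, and the number of animals or cultures behind each is not given in the sources used here. Brain is a mixture of neurons and glia, so that a modification carried by few cells and a low level in every cell cannot be told apart. RNA-Seq libraries of the transfected ESCs were not analysed here.

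5-Hydroxymethylcytosine (5hmC) is made from 5-methylcytosine (5mC), mostly at CpG dinucleotides, by the Tet dioxygenases. It is an intermediate of demethylation and also a lasting mark, and adult neurons are known to carry it at high levels, above all along the bodies of genes. In GLIB-Seq, 5hmC is given a glucose, the glucose is oxidised with periodate, and the product is labelled with biotin, by which the modified fragments are captured and sequenced.

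The first set of sequences shows high-scoring members, not typical ones. Their scores ran from 139.67 to 375.71, against a median of 94.8 for all brain-only peaks. The first is the central 300 bp of the highest-scoring brain-only peak of all, which lay in Nova1. The others are those of the highest-scoring ones in the 3 genes that held the most (Csmd2, Fam19a5 and Ephb1) and in Cdk5rap2, the second gene by density. All are on the plus strand of mm9 and within introns. Capitals mark CpG, the dinucleotide in which 5hmC mostly lies.
Nova1, chr12:47915000-47915299: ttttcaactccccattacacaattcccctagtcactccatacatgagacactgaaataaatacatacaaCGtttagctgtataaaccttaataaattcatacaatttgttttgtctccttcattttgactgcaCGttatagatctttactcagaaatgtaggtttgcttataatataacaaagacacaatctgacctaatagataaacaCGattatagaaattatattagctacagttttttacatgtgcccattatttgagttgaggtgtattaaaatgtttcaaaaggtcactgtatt
Csmd2, chr4:128148103-128148402: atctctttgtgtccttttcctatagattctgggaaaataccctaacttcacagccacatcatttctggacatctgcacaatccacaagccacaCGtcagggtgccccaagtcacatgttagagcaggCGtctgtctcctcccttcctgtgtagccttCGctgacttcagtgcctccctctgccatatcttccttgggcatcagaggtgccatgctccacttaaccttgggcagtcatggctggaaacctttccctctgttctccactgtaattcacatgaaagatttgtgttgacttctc
Fam19a5, chr15:87507067-87507366: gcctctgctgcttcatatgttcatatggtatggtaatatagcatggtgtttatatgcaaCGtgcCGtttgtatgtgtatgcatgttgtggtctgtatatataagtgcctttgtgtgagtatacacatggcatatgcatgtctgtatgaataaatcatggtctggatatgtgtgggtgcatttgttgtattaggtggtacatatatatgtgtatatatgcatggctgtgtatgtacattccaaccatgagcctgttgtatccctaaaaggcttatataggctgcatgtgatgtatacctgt
Ephb1, chr9:101968468-101968767: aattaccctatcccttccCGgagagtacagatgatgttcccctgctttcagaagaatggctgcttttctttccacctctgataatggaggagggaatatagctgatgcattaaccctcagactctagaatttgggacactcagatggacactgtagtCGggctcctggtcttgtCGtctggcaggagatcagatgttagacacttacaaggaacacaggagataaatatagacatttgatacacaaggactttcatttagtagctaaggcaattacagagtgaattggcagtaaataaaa
Cdk5rap2, chr4:69887760-69888059: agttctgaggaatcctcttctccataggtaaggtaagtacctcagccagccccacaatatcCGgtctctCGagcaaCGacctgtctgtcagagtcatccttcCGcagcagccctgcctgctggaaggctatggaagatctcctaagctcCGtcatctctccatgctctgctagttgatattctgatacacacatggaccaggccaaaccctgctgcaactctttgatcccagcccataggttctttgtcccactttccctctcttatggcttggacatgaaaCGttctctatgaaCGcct
These windows held 3 CpGs in Nova1, 3 in Csmd2, 2 in Fam19a5, 3 in Ephb1 and 7 in Cdk5rap2. For contrast, the next sequence is the central 300 bp of the highest-scoring brain peak of Fam19a5 that was also marked elsewhere. It had a score of 436.64 over 5955 bp, held 9 CpGs in the window, and was chosen after its values were seen.
Fam19a5 peak shared with another list, chr15:87527866-87528165: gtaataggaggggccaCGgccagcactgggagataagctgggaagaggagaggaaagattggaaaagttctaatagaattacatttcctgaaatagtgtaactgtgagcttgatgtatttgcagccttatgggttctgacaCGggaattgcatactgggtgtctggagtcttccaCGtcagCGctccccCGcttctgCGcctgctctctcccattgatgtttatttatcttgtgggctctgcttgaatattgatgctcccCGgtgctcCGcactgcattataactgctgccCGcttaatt

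Brain-only peaks made up 7.14% of the brain peaks with a score of at least 80 (exact Clopper-Pearson 95% interval 6.86 to 7.42%). This interval and all others cover counting error alone, since no condition has a second library. By the same rule, 26.0% of liver peaks, 26.2% of ESC peaks and 22.5% of MEF peaks with such a score met no peak of the other 3 lists. The lowest scores of the lists differed and were 30 in brain and MEFs and 80 in ESCs and liver, so that a liver or ESC peak below 80 is not in the lists. When MEF peaks below 80 were also set aside, the number of brain-only peaks was 4041. Without the ESC list it was 4333, without the MEF list 5797 and without the liver list 3941, settings chosen after the data had been seen. Of the brain peaks with a score of at least 80, 71.5% met a MEF peak, 69.2% an ESC peak and 58.5% a liver peak, and 34.4% met peaks in all 3 lists. Brain shared 10.3% of these peaks with MEFs alone, 5.91% with ESCs alone and 4.73% with liver alone.

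Among the brain peaks with a score of at least 80, the brain-only peaks were lower and narrower than the others. Since the rule used the score, and a wider peak has more bases with which to meet another, these values are a description. The median score was 94.8 (range 80.01 to 375.71), against 111 for the other 30832 brain peaks with a score of at least 80. The share of brain peaks that were brain-only fell from 11.4% at scores of 80 to 100, through 7.37% at 100 to 120 and 4.96% at 120 to 150, to 2.12% at 150 to 200, and 19 of 3218 (0.590%) at 200 or more. Below the minimum, 28.6% of the brain peaks met no other list. At the threshold itself, the 3 members just inside had scores of 80.01, 80.02 and 80.02, and the 3 peaks just outside each had 79.98. The median width was 1552 bp (95% interval 1530 to 1570 bp, range 656 to 5518 bp), against 1848 bp for the other brain peaks. The order turned, to 1830 against 1823 bp, where an overlap had to reach 50% of the brain peak to count. The full brain list had a median score of 49.81 and a median width of 1063 bp. Among peaks with scores of 80 to 100, the medians were 1432 and 1526 bp. Together the brain-only peaks covered 3.85 Mb of the genome.

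By their midpoints, most brain-only peaks lay in introns, and few lay at promoters or in exons. By the midpoint of the peak, 1621 of 2370 (68.4%, 66.5 to 70.3%) were in introns of protein-coding genes, against 66.1% of the other brain peaks, 59.3% of the liver-only peaks and 34.04% of the bases of the nuclear genome. Exons held 131 of them (5.53%, 4.64 to 6.52%). That share was above the 2.54% of the genome that is exonic, but below the 12.1% of the other brain peaks (11.7 to 12.4%). Counted by an overlap of 1 bp instead of the midpoint, 21.8% of the brain-only peaks touched an exon, against 35.2% of the other brain peaks. Only 11 of the 2370 midpoints (0.464%, 0.232 to 0.829%) were within 1 kb of a TSS, against 1.24% of the other brain peaks (1.12 to 1.37%), 2.51% of the liver-only peaks and 1.59% of the genome. By an overlap of 1 bp, 1.39% of them met a promoter. A further 5.82% lay within 10 kb of a gene, and 19.8% lay farther away, against 13.7% of the other brain peaks. In all, 1759 brain-only peaks (74.2%, 72.4 to 76.0%) lay within the span of a protein-coding gene, against 79.0% of the other brain peaks (78.6 to 79.5%). The median distance to the nearest TSS was 61.8 kb (57.8 to 65.9 kb), compared with 36.0 kb for the other brain peaks and 22.5 kb for the liver-only peaks. By the same rule, MEF-only peaks had a median of 70.6 kb, with 2.02% in exons and 1.15% at promoters. ESC-only peaks had 21.7 kb, with 10.3% in exons and 3.70% at promoters. A long distance to the TSS and a low exon share were thus not particular to brain.

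**Figure D1:**
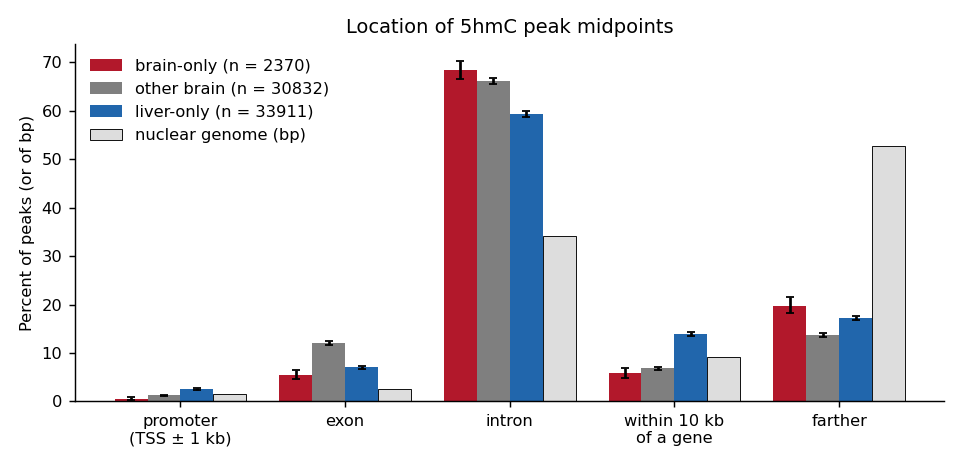
Percentage of peak midpoints (vertical axis) in promoters, exons, introns, within 10 kb of a protein-coding gene or farther away, for brain-only, other brain and liver-only peaks, with the percentage of nuclear bases in each class. Error bars are exact 95% intervals for counting error. Brain-only peaks had 5.53% in exons, where the other brain peaks had 12.1%, and 68.4% in introns.

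The differences in location were also seen among peaks of similar score. With scores of 80 to 100, exons held 5.01% of 1438 brain-only peaks (3.94 to 6.26%) and 10.5% of 11211 other brain peaks. Promoters held 0.695% and 1.57%, introns 66.0% and 62.9%, and the median distance to the TSS was 61.9 and 35.4 kb. Of the 611 brain-only peaks outside protein-coding genes, 38 (6.22%) were in another annotated gene, 18 of them in lincRNAs and 19 in processed transcripts. This share was not computed for the other brain peaks or the genome, so these counts have no background beside them.

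The 11 promoter peaks were at Chml, Chrm5, Clnk, Ehf, Enpp6, Ercc4, Lime1, Mocs2, Otos, Tcn2 and Zdhhc11. Chrm5 encodes a muscarinic acetylcholine receptor, and Enpp6 a choline phosphodiesterase found in oligodendrocytes. The other members of this group are not known mainly for a role in brain, such as Ercc4, an endonuclease of nucleotide excision repair, and Tcn2, the plasma carrier of vitamin B12. Their scores were low, from 80.34 at Ehf to 106.16 at Zdhhc11, and their widths ran from 1020 to 1679 bp.

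Along the genes, the brain-only peaks were more frequent towards the 3′ end. Of the 1759 midpoints in gene spans, 8.87% (7.58 to 10.3%) lay in the first 10% of the gene span and 12.2% (10.7 to 13.8%) in the last 10%, and the lowest value was 7.73%, between 20 and 30% of the span. The other brain peaks ran from 7.67% in the first 10% to 14.1% in the last, while the liver-only peaks ran the other way, from 11.1% to 8.88%. Genes that held a brain-only peak were long. The median length of the holding gene, taken over peaks, was 192 kb (176 to 203 kb), against 109 kb for the other brain peaks and 79.9 kb for the liver-only peaks.

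Counted by gene, 1114 of 22367 protein-coding genes (4.98%) held at least 1 brain-only peak, 307 held 2 or more, 147 held 3 or more, and 44 (0.197%) held 5 or more. The peaks were spread over many genes. The 15 genes with the most held 153 of the 1787 assignments of a peak to a gene (8.56%), and the first 50 held 19.0%. Genes with a brain-only peak had a median length of 129 kb, and all protein-coding genes 15.4 kb. The percentage of genes with at least 1 rose with gene length, from 0.181% of genes under 10 kb, 2.29% at 10 to 50 kb and 9.43% at 50 to 100 kb, to 20.6% at 100 to 200 kb, 36.7% at 200 to 500 kb and 47.5% (40.4 to 54.7%) at 500 kb or more. A longer gene has more room for a peak, so the number per 100 kb of gene is given as well. It was 0.0467 in genes under 10 kb, 0.221 at 100 to 200 kb, 0.233 at 200 to 500 kb and 0.180 in the longest class. The share of the brain peaks in these genes that were brain-only was higher in each longer class, from 1.38% in the shortest to 15.6% in the longest. In the longest genes the other brain peaks were sparse, at 0.974 per 100 kb against 3.34 in the shortest.

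**Figure D2:**
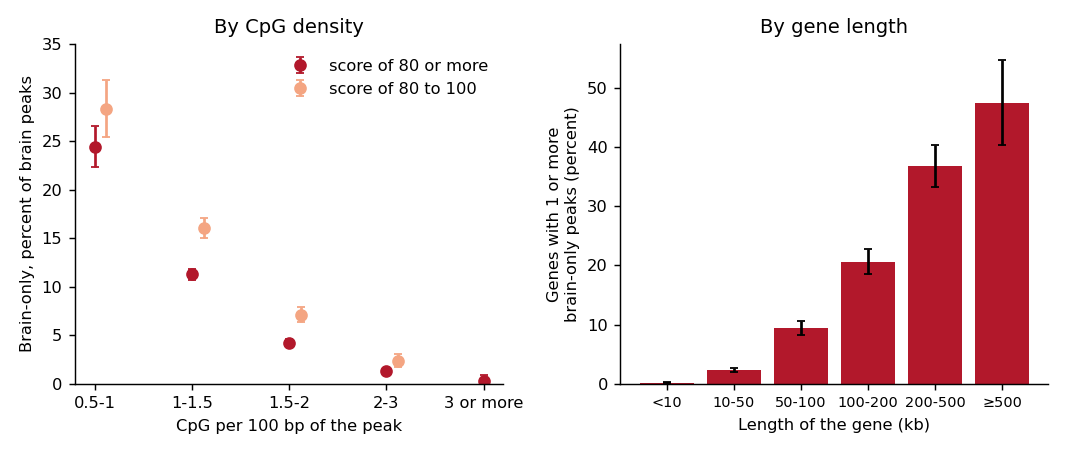
Left, percentage of brain peaks that were brain-only (vertical axis) by CpG per 100 bp of the peak, for all scores of at least 80 and for scores of 80 to 100. Right, percentage of protein-coding genes with at least 1 brain-only peak by gene length in kb. Bars on the points and columns are exact 95% intervals. The share falls from 24.4% to 0.246% from the lowest to the highest CpG class plotted (the 10 peaks under 0.5 are left out), and rises from 0.181% to 47.5% with gene length.

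Csmd2, Fam19a5 and Ephb1 held the most brain-only peaks. Csmd2, which encodes a large transmembrane protein with CUB and sushi domains, held 18 among its 30 brain peaks with a score of at least 80 (580 kb, chr4:127665101-128244903, plus strand). Fam19a5, which encodes a small secreted protein of the brain, held 15 of 24 (215 kb, chr15:87374904-87589766, plus strand). Ephb1, a receptor tyrosine kinase for ephrin-B ligands that guides axons, held 13 of 30 (433 kb, chr9:101824458-102257023, minus strand). These genes had 60.0%, 62.5% and 43.3% of their brain peaks in the brain-only set, where over all protein-coding genes the share was 6.64%. As the genes were chosen by this count, those shares carry no test.

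The next genes in the order by count were Auts2, a gene of neuronal development, with 12 of 65, Pde10a, a cyclic nucleotide phosphodiesterase of striatal neurons, with 11 of 33, and the adhesion protein gene Ntm with 11 of 23. Tbc1d22a, which has the TBC domain of Rab GTPase-activating proteins, held 10 of 32. Cdk5rap2, a centrosomal protein gene linked to microcephaly, held 9 of 17, and Npas3, a transcription factor of the developing brain, 9 of 40. Ctnnd2 (delta-catenin) held 8 of 16, Dock1, an activator of Rac, 8 of 45, and the adhesion protein gene Dscaml1 8 of 21. The last of the 15 were Sema6d, a transmembrane semaphorin, with 7 of 19, Lphn3, an adhesion receptor of synapses, with 7 of 15, and Ptprm, a receptor-type tyrosine phosphatase, with 7 of 40. All but 1 of the peaks in these 15 genes had their midpoints in introns, the exception being a peak of Cdk5rap2.

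By number per 100 kb, among genes with at least 5, Fam19a5 came first with 6.98 per 100 kb. Over all protein-coding gene spans the density was 0.176. Cdk5rap2 followed with 4.65, Fam13c with 4.23, Mboat2, a phospholipid acyltransferase gene, with 3.88, and Tbc1d22a with 3.52. Ubash3b had 3.32, Csmd2 3.10, Rftn1, which encodes a protein of lipid rafts, 3.02, Ephb1 3.01 and Ptpro, a receptor-type phosphatase gene, 2.83. In Ptpro 6 of the 9 brain peaks were brain-only. This order thus set shorter genes beside Csmd2 and Ephb1, and it left out Auts2, whose 1106 kb gave 1.08 per 100 kb.

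The other lists also had peaks in these genes, at other positions. With all lists held to a score of at least 80, brain peaks covered 24.2% of Fam19a5, MEF peaks 3.65% and ESC peaks 2.33%, and the liver list had no peak. In Csmd2 the coverage was 9.57% in brain, 6.11% in ESCs, 2.40% in MEFs and 0.157% in liver, where 1 peak lay. Ephb1 had 14.5% in brain, 2.74% in ESCs, 2.42% in MEFs and 0.605% in liver. The full lists of brain and MEFs, which reach down to a score of 30, covered more, with 25.5% and 7.80% of Csmd2 and 33.1% and 8.48% of Ephb1. The brain-only peaks by which the genes were chosen are part of the brain coverage. Brain coverage was above that of the other 3 lists in 14 of the 15 genes with these peaks and in 7 without them, a comparison added after the data had been seen. Neither count is a test. The first holds the peaks by which the genes were chosen, and in the second the other lists kept the peaks found in them alone. The lists also differed in size at a score of at least 80. They held 33202 peaks in brain, 74068 in MEFs, 130408 in liver and 171865 in ESCs. Without the brain-only peaks, brain covered 4.25% of Csmd2, less than the ESC list, 9.77% of Fam19a5 and 9.35% of Ephb1. In Npas3 the MEF peaks covered 13.7% and the brain peaks 9.39%, brain-only peaks included. Liver had no peak in Fam19a5, Npas3 and Dscaml1, and its highest coverage was 12.3% in Dock1 and 11.7% in Tbc1d22a. Genes rich in brain-only peaks therefore ranged from nearly unmarked in liver to marked in all 4 lists.

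**Figure D3:**
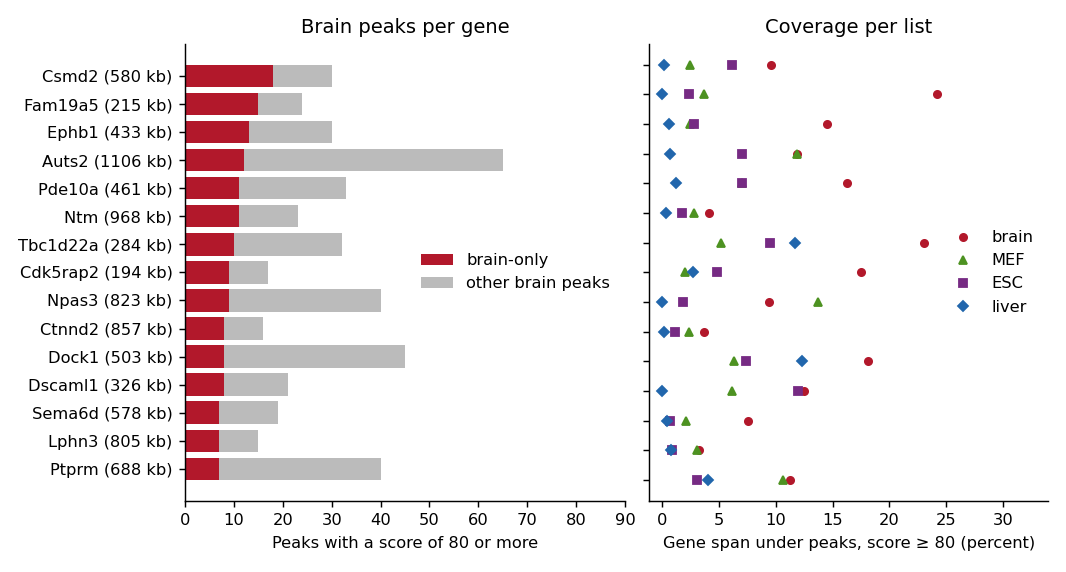
Left, number of brain peaks with a score of at least 80 in the 15 genes with the most brain-only peaks, split into brain-only and other brain peaks, with gene lengths in kb beside the symbols. Right, percentage of each gene span under peaks with a score of at least 80 in brain, MEFs, ESCs and liver, 1 library each. Csmd2 holds 18 brain-only peaks of 30, and Fam19a5 has 24.2% of its span under brain peaks, brain-only ones included, and none under liver peaks.

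In Fam19a5 the 15 brain-only peaks were all intronic and lay between 13.6 and 188 kb from the TSS. Of these, 12 were in intron 1, 1 was in intron 2 and 2 were in intron 3. Their scores ran from 87.96 to 271.99 with a median of 112.04, and the widest was 3632 bp. The highest, with the sequence given above, was at chr15:87505401-87509032. With 3 neighbours it formed a run of 4 within 12.1 kb (chr15:87503608-87515664) that held no other brain peak with a score of at least 80. Peaks of other lists were close by. The gap from a brain-only peak of this gene to the nearest ESC, MEF or liver peak ran from 0.032 kb to 8.01 kb. In Csmd2 the 18 peaks were spread from 24.5 to 483 kb from the TSS, with scores from 80.11 to 172.48, and 8 of the 18 were past the middle of the gene. The TSS is here the start of the whole annotated gene span. Only the peaks at 410, 465 and 483 kb lay in introns of its longest protein-coding transcript, namely introns 1, 8 and 12. The others, at up to 351 kb, lay in no intron of that transcript. In Ephb1 the 13 peaks had scores from 81.44 to 139.67 and lay between 8.89 and 384 kb from the TSS.

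**Figure D4:**
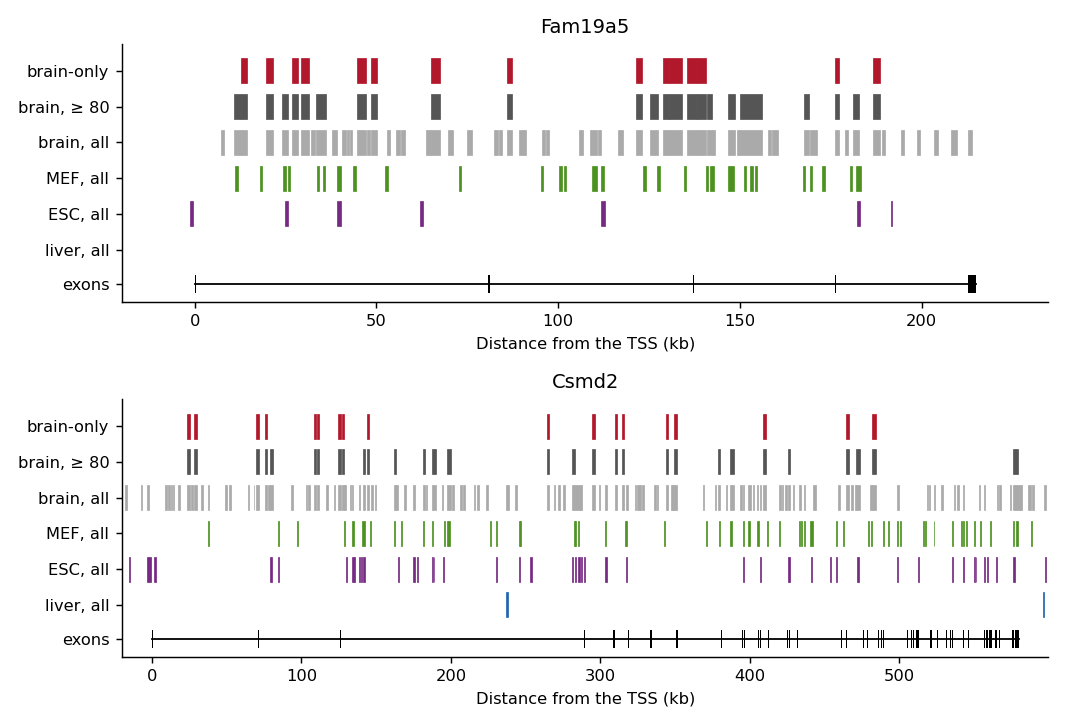
Maps of Fam19a5 (top) and Csmd2 (bottom) against the distance from the TSS in kb. Rows show the brain-only peaks, brain peaks with a score of at least 80, and the full brain, MEF, ESC and liver lists, over the exons. The 15 brain-only peaks of Fam19a5 and the 18 of Csmd2 lie in introns of the whole annotated gene span, and liver has no peak in Fam19a5.

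Runs of brain-only peaks less than 5 kb apart were rare. Of the 2370 peaks, 2191 stood alone, 71 runs held 2, 11 held 3, and the one in Fam19a5 held 4. The runs of 3 included those in Kcnk2, a background potassium channel gene, Mboat2, Ephb1, Cdk5rap2, Rftn1, Ntm and Ubash3b. In windows of 1 Mb, the largest number was 16 among 27 brain peaks on chromosome 15 at Fam19a5. Next came 15 of 25 on chromosome 4 at Csmd2, and 13 of 30 on chromosome 17 at Pde10a.

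The 10 brain-only peaks with the highest scores were all intronic. The first, with a score of 375.71 and a width of 5518 bp, was in intron 2 of Nova1, which encodes a neuronal RNA-binding splicing regulator (chr12:47912391-47917908, 4.61 kb from the TSS). The nearest ESC, MEF or liver peak was 51.4 kb away. It was the only brain-only peak of that gene. The second, with a score of 282.34, lay in intron 4 of Stard3nl, an endosomal protein gene, 0.481 kb from another list's peak. Fam19a5 had the third and the fourth, with scores of 271.99 and 251.57. The rest were in St3gal6, a sialyltransferase gene (237.06), Phf21a, which encodes a subunit of a histone demethylase complex (233.62), Npas3 (230.04), Vldlr, a receptor for reelin (226.97), Rps6ka2, a ribosomal S6 kinase gene (224.98), and Cdk5rap2 (221.96). In the ESCs with shRNAs, the peaks in Stard3nl and Rps6ka2 each met 1 peak of the Suz12 knockdown, and none of the 10 met a peak of the shGFP control.

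Grouped by function, lists of synaptic genes, many of them long, had brain-only peaks in 6.67% (GABA receptors) to 42.1% (adhesion proteins) of their members, against the 4.98% of all genes. These counts carry no test. Liver-only peaks, 33911 in all, also lay in each of these lists. They were in 11 of the 38 adhesion genes and 18 of the 28 postsynaptic genes, beside 7092 of all 22367 protein-coding genes. The median gene held 0 brain-only peaks in each of the 18 lists examined, as it did over all protein-coding genes. Genes of at least 200 kb held at least 1 in 372 of 954 cases (39.0%), and list members of that length are given beside this value. By that measure the GABA receptors (16.7%), metabotropic glutamate receptors (20%), presynaptic genes (25%), axon guidance genes (35.3%) and ionotropic glutamate receptors (36.4%) were below it. The adhesion proteins (51.9%), potassium channels (53.8%), postsynaptic genes (58.3%) and sodium and calcium channels (62.5%) were above it. Each share rests on only 5 to 27 genes and has no interval here. The 39.0% itself pools 36.7% of genes at 200 to 500 kb and 47.5% at 500 kb or more. The adhesion list had a median length of 579 kb. No list was matched to these classes, so a share above 39.0% was not separated from length. Among synaptic and axonal adhesion proteins, which hold neurites and synapses together, 16 of 38 genes held at least 1, and among the long members 14 of 27. They held 63 brain-only peaks, led by Csmd2 with 18, Ntm with 11, Ctnnd2 with 8 and Opcml with 4. Negr1 had 3 and Nrxn3, a neurexin gene, 2. Of the brain peaks in this group 37.7% were brain-only. The density of brain-only peaks was 0.245 per 100 kb, against 0.176 over all genes, but without Csmd2 the list held 45 peaks at 0.179 per 100 kb. The density of the other brain peaks was 0.404 per 100 kb, against 2.47.

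Among receptors, the ionotropic glutamate receptors, which open ion channels at excitatory synapses, had 5 of 18 genes with at least 1 brain-only peak, and 4 of the 11 long ones. Grid1 held 7, Grik4 4, Grin2b 2, and Gria1 and Grin3a 1 each, with scores of up to 122.28 at Gria1. Of the 8 metabotropic glutamate receptors Grm5 alone held 1, and of the 15 GABA receptor genes Gabbr2 alone held 1. Gabbr2 was covered by peaks in all 4 lists, with 22.8% of its span in brain and 23.2% in liver.

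Among ion channels, 6 of 23 voltage-gated sodium and calcium channel genes held at least 1 brain-only peak, and 5 of the 8 long ones. Cacna1c, the pore subunit of an L-type calcium channel, held 6 among its 44 brain peaks, and Cacna1h, a T-type channel gene of 59.5 kb, held 2. None of the sodium channel genes of the list held any. Of the potassium channel genes, 9 of 27 held at least 1, and 7 of the 13 long ones. Kcnd3, a channel of the A-type current, held 5 with a highest score of 146.05, Kcnip1, which encodes a partner of such channels, 3, and Kcnj6, a G protein-gated channel, 2.

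On the postsynaptic side, 9 of 28 scaffold and signalling genes held at least 1 brain-only peak, and 7 of the 12 long ones. Dlgap2 held 6, Anks1b 5, Magi2 4, and Magi1 and Prkcb 3 each. In Magi2 all 4 brain peaks with a score of at least 80 were brain-only, whereas Magi1 had 39 such peaks and was also covered by liver peaks over 37.8% of its span. The presynaptic vesicle and active zone genes had 3 of 33, namely Pclo with 2, Syt1 and Syt7, and 2 of the 8 long ones. Axon guidance genes had 11 of 35, and 6 of the 17 long ones. Ephb1 held 13, Sema6d 7, Sema5a 4 and Slit3, a secreted ligand of Robo receptors, 2. The highest score of this group was 213.63, in Plxna4, a semaphorin co-receptor gene with 1 brain-only peak.

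The lists of marker genes of single cell types consisted mostly of short genes. Of 19 neuron markers named, 17 were found by symbol in the annotation, and 3 of these 17 held a brain-only peak. Among them were both of the 2 long ones found. The density was 0.234 peaks per 100 kb, or 0.156 without Rbfox3. The 3 were Rbfox3, which encodes the nuclear antigen NeuN, with 2, Elavl4 with 1 and Syt1 with 1. The neuron marker Map2, named Mtap2 in the annotation, was missed by these counts. It held a brain-only peak in an exon, with a score of 92.19. Mobp was the sole one among 17 oligodendrocyte and myelin markers, which gave 0.230 per 100 kb from 1 peak. No brain-only peak lay in the 13 astrocyte, 13 microglia or 10 endothelial markers, which allows a share of up to 24.7%, 24.7% and 30.8% (exact 95% limits). None of these 3 lists, nor the oligodendrocyte list, had a gene of 200 kb or more. Among the genes of other tissues, none of 27 hepatocyte genes held any (upper limit 12.8%), and 2 of 20 fibroblast and mesenchymal genes did (Fbn1 and Col5a1). Of the 17 genes for enzymes and readers of 5mC and 5hmC only Mbd2 held 1, and of 75 cytosolic ribosomal protein genes none did. A peak in a gene is not a measure of its expression, so the tissue label was not checked by these markers.

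**Figure D5:**
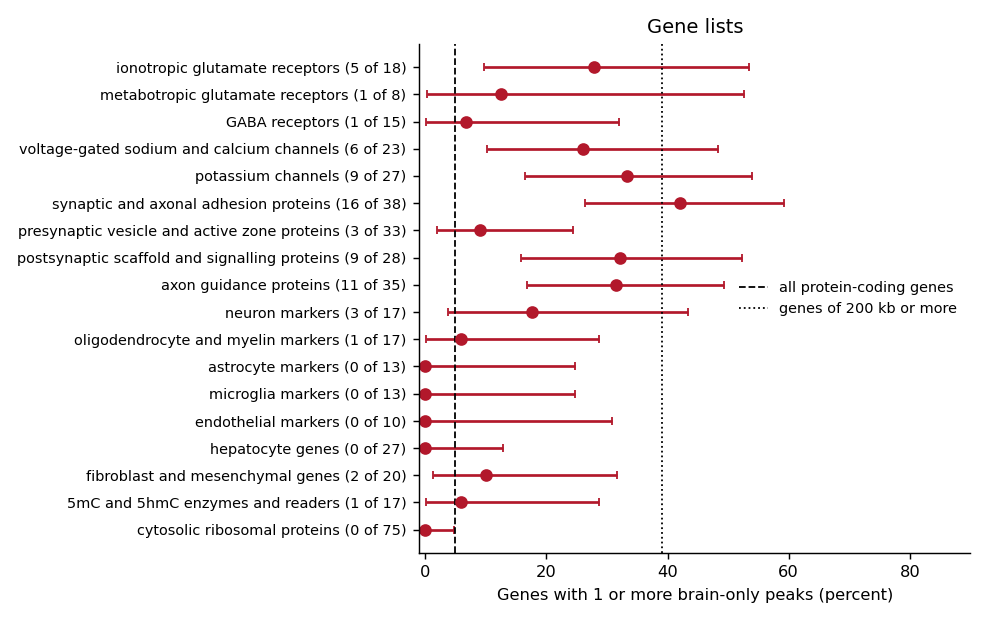
Percentage of genes with at least 1 brain-only peak (horizontal axis) in each of 18 gene lists, with exact 95% intervals and the counts in brackets. The dashed line is the 4.98% of all protein-coding genes, the dotted line the 39.0% of genes of 200 kb or more. Adhesion proteins had 16 of 38. The hepatocyte, microglia, astrocyte, endothelial and ribosomal lists, which have no gene of 200 kb or more, had none.

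The brain-only peaks were poorer in CpG than the other brain peaks, though richer than their own flanks. Their median was 1.28 CpG per 100 bp (1.26 to 1.30), against 1.62 (1.61 to 1.63) in the other brain peaks and 1.02 in the liver-only peaks. Flanks of the same width had 0.925 per 100 bp, and 79.96% of the brain-only peaks had more CpG than their flanks, against 80.3% of the other brain peaks and 69.5% of the liver-only peaks. The GC content was 45.8%, compared with 48.1% and 43.9%. The observed to expected CpG ratio was 0.247, compared with 0.282 and 0.215. Among peaks with scores of 80 to 100, the medians were 1.27 CpG per 100 bp (1.24 to 1.29) for brain-only peaks and 1.56 (1.55 to 1.57) for the others.

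The share of brain peaks that were brain-only fell with CpG density, from 24.4% at 0.5 to 1 CpG per 100 bp to 11.3% at 1 to 1.5 and 4.23% at 1.5 to 2. It was 1.29% at 2 to 3 and 0.246% (2 of 814) at 3 or more. Below 0.5 there were 10 peaks, of which 1 was brain-only. With scores of 80 to 100 it fell likewise, from 28.3% through 16.04% and 7.10% to 2.35% at 2 to 3 CpG per 100 bp. Over their whole width, the peaks behind the printed sequences had 0.906 CpG per 100 bp in Nova1, 1.61 in Csmd2, 1.24 in Fam19a5, 1.31 in Ephb1 and 1.24 in Cdk5rap2. The shared Fam19a5 peak had 1.38, below the 1.62 of the other brain peaks and nearer to the brain-only peak of that gene than the central windows are to each other.

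The lists of ESCs with shRNAs took no part in the rule and were a second look at ESCs. Of the 2370 brain-only peaks, 172 (7.26%, 6.25 to 8.38%) overlapped a peak of the shGFP control and 275 (11.6%, 10.3 to 13.0%) one of the Suz12 knockdown, while 1981 (83.6%) met neither. The same lists met 57.4% and 53.8% of the other brain peaks. Among the 7871 other brain peaks that met no ESC peak, the overlap was 13.0% (12.3 to 13.8%) with shGFP and 17.8% (16.9 to 18.6%) with the Suz12 knockdown. The lowest scores of these lists were 50.02 for shGFP and 30.34 for the Suz12 knockdown, below the 80 of the ESC list, and the part of these thresholds in the overlap was not tested.

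Peaks of the other lists were often near. The median gap from a brain-only peak to the nearest peak was 1.81 kb in MEFs, 3.56 kb in ESCs and 14.3 kb in liver, and 1.05 kb (0.972 to 1.13 kb) to any of the 3. The full lists held 217025 peaks in MEFs, down to a score of 30. They held 171865 in ESCs and 130408 in liver, both down to 80. The part of list size and lowest score in these gaps was not tested. Of the brain-only peaks 48.8% had another list's peak within 1 kb, and 105 (4.43%) had none within 10 kb.

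The share of brain-only peaks differed between chromosomes. It was highest on chromosome 1, with 213 of 2116 brain peaks (10.1%, 8.82 to 11.4%), and on chromosome 9, with 175 of 1864 (9.39%), which also had the largest number per length, 14.1 per 10 Mb against 8.93 over the genome. With the ESC list in the rule, it was lowest among the autosomes on chromosome 8, with 70 of 2072 (3.38%, 2.64 to 4.25%). The ESC list had 15212 peaks on chromosome 8, more than on any other chromosome, and the same was true of the shGFP and Suz12 knockdown lists with 11567 and 12683. Without the ESC list in the rule, the share on chromosome 8 was 10.3%, against 13.1% over the genome, 9.43% on chromosome 19 and 9.55% on chromosome 16. Chromosome 9 then had 16.1% and chromosome 1 15.8%. The brain list had 22 peaks on the X chromosome, 10 of them with a score of at least 80 and none brain-only, so that no share could be read there.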

How the data were processed

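Genomic DNA was sonicated and 5hmC fragments were collected with a commercial GLIB kit and sequenced in 1 library per condition. Per the labels and methods, the authors mapped reads to mm9 with Bowtie 0.12.7, keeping unique hits and collapsing redundant reads, and called peaks with MACS 1.4.1 library by library, after CASAVA 1.8. The deposited lists give the position and score of each peak, and the authors' score is read here as 10 times the negative log10 of the MACS p-value. The control and threshold of each list are not given in the sources used here. No read counts are given, so the depth is unknown, and 1 library per condition allows no test between conditions.

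Mitochondrial peaks were left out (1 to 3 per list). Peaks were set against 22367 protein-coding genes of the GENCODE annotation of NCBIM37, the assembly of mm9 (mouse release 1, Ensembl 65), by the midpoint of the peak, in the order promoter (TSS ± 1 kb), exon, intron, within 10 kb of a gene. A peak in overlapping genes counted in each. Sequences came from the same assembly. Named genes were the 15 with the most brain-only peaks (ties by bp covered), the 10 with the most per 100 kb among those with at least 5, the genes of the 10 highest scores, up to 4 leading members of each gene list, and further list or promoter members chosen after their values were seen. The sequence of the highest-scoring brain peak outside the brain-only set is not printed, and a shared peak of Fam19a5 stands in its place. The peaks, genes and lists were chosen with earlier results of these data known. Shares have exact (Clopper-Pearson) 95% intervals and medians have binomial ones. Alternatives were other score minimums, another overlap, a gap of 1 kb, other promoters and all annotated genes. The choice of brain-only peaks and the placing of points in gene spans were tested on simulated peaks, the other steps were not. All steps used Python 3.11.15 with pandas 2.3.3, numpy 2.4.6, matplotlib 3.10.9 and scipy 1.17.1.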

Additional observations from a re-analysis of the deposited data

How the results depend on the processing

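With a brain score of at least 30, there were 37921 brain-only peaks with a median width of 920 bp and 1.16 CpG per 100 bp, 62.8% of them in genes, 27.7% of genes holding 1, and 4.70% meeting a shGFP peak. At 120 or more there were 401, with a width of 1989 bp and 1.33 CpG per 100 bp, 82.8% in genes, 0% on promoters and 6.73% in exons, and 1.20% of genes held 1. With MEF scores of at least 80 there were 4041, with 1607 bp, 1.32 CpG per 100 bp, 71.4% in genes, 4.60% in exons, 6.68% of genes and 8.39% meeting shGFP. Where an overlap had to reach 50% of the brain peak there were 6281, with 1830 bp, 1.36 CpG per 100 bp, 10.01% of genes and 21.6% meeting shGFP, and with no other peak within 1 kb there were 1215, 2.89% of genes and 6.01% meeting shGFP. By an overlap of at least 1 bp, 1.39% met promoters and 21.8% exons, with all annotated genes 1.27% were on promoters, and with promoters of 2 kb on each side 1.43%. Leaving out 1 list, added after seeing the data, gave 4333 peaks without ESCs, 5797 without MEFs and 3941 without liver. The other 17 of the 52 alternative values stayed within the counting error, or within 1.5 times the count. Under the 5 other rules for choosing the peaks, brain-only peaks had lower shares in genes, promoters and exons and less CpG than the other brain peaks each time. At a score of at least 120 the shares in genes were close, 82.8% (78.7 to 86.4%) against 83.9%. The median width of brain-only peaks was above that of the others (1830 against 1823 bp) with the 50% overlap. The lists without read counts set the limit: what a deeper library would add cannot be seen. No paired analysis was possible because no condition has a second library.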
